A study of Homo sapiens with 14 samples.

Results

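Several human miRNA entries lie inside genes for small nucleolar RNAs (snoRNAs), and 9 mature miRNAs of this kind were followed through both pulldown assays for N7-methylguanosine (m7G) in A549 cells, a human lung adenocarcinoma line. They were taken by name from the 2588 mature miRNAs counted in each table: hsa-miR-664a-5p, hsa-miR-664a-3p, hsa-miR-664b-5p, hsa-miR-664b-3p, hsa-miR-3651, hsa-miR-1248, hsa-miR-1291, hsa-miR-3607-5p and hsa-miR-3607-3p. All 9 were listed in both tables. The prefix hsa- marks a human entry and is mostly left out here.

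All 14 small RNA libraries came from decapped total RNA of A549 cells, for which the labels give no treatment, so the groups differed in the treatment of the RNA and not of the cells. In BoRed-seq, RNA was reduced with NaBH4 in the presence of free m7GTP (Red, 2 libraries) or received acid-quenched NaBH4 (Ctrl, 2 libraries). Low pH then removed the reduced bases, a biotin probe was attached to the abasic sites, and both Red and Ctrl RNA went through the streptavidin pulldown. In m7G-RIP-seq, heat-denatured RNA was immunoprecipitated with an antibody against m7G and eluted with m7GTP (IP, 5 libraries), and the Input (5 libraries) was an aliquot of the same RNA kept back beforehand. A549 is 1 cell line, and the labels do not say whether replicates came from separate cultures, so p-values measure the spread between these libraries, which may be technical.

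SnoRNAs are nucleolar guide RNAs. Those of the H/ACA box class fold into hairpins, bind the pseudouridine synthase dyskerin and direct the isomerisation of uridine in rRNA, and they carry an ACA box just before the 3′ end. Those of the C/D box class direct 2′-O-methylation with fibrillarin. Most are cut from introns of host genes. Some yield shorter fragments that enter Argonaute proteins as miRNAs do, and miRBase lists several of these as miRNAs. A count table per mature miRNA holds no read length, so reads of a mature miRNA and reads of a longer snoRNA fragment over the same bases cannot be told apart in these data. In bulk RNA, neither can fewer copies per cell and fewer cells with the RNA.

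The mature sequences below, 7 of the 9, show what each count refers to. They are RefSeq records on GRCh38.p14, written 5′ to 3′ with the seed (bases 2 to 8, which pair with a target) in capitals. The arms of miR-3607 are named only.
miR-664a-5p: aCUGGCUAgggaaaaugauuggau
miR-664b-5p: uGGGCUAAgggagaugauugggua
miR-664a-3p: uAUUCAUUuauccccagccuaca
miR-664b-3p: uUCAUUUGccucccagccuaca
miR-3651: cAUAGCCCggucgcugguacauga
miR-1248: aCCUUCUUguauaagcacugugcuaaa
miR-1291: uGGCCCUGacugaagaccagcagu

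No seed was shared between any pair of the 7. In hg38, miR-664a-5p lay at chr1:220200586-220200609 and miR-664a-3p at chr1:220200549-220200571, both on the minus strand within SNORA36B (131 bases) in an intron of RAB3GAP2, a subunit of the complex that regulates Rab3 GTPases. miR-664b-5p (chrX:154768596-154768619) and miR-664b-3p (chrX:154768635-154768656) lay on the plus strand within SNORA36A (132 bases) in DKC1, the gene for dyskerin itself. Their hairpin overlapped no exon of a protein-coding DKC1 transcript and 2 exons of its other transcripts. miR-3651 (chr9:92292461-92292484, minus strand) lay in SNORA84 in an intron of IARS1, an isoleucyl-tRNA synthetase. miR-1248 (chr3:186786675-186786701, plus strand) lay in SNORA81 in EIF4A2, a translation initiation helicase, where the hairpin overlapped 2 exons of transcripts that are not protein-coding. miR-1291 (chr12:48654494-48654517, minus strand) lay in SNORA2C in an intron of KANSL2, a subunit of a histone acetyltransferase complex. The annotation records the miR-3607 hairpin under the C/D box name SNORD138, at chr5:86620497-86620575 on the plus strand, overlapping an exon of 1 protein-coding transcript of COX7C, a cytochrome c oxidase subunit.

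SNORA36B and SNORA36A are close copies and differ by an edit distance of 16 bases. They are shown with SNORA84, whose miRNA also comes from the 3′ end, so that the arms can be seen in place. Sequences are those of hg38 on the strand of the snoRNA (SNORA36B chr1:220200546-220200676, minus; SNORA36A chrX:154768528-154768659, plus; SNORA84 chr9:92292461-92292593, minus), with T for U and the bases of the mature miRNAs in capitals.
SNORA36B: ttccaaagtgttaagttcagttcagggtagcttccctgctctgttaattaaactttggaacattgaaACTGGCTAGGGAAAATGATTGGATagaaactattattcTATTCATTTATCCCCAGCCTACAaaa
SNORA36A: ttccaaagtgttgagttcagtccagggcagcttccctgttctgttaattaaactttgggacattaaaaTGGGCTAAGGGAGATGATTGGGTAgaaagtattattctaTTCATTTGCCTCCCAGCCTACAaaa
SNORA84: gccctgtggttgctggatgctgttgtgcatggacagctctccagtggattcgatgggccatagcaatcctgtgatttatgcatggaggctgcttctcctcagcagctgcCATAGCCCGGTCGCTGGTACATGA

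The 5p arms of miR-664a and miR-664b covered bases 68 to 91 of SNORA36B and 69 to 92 of SNORA36A. Their 3p arms ended 3 bases before the end of the snoRNA, so each closed on the ACA box. miR-3651 ran to the last base of SNORA84 and also held the box. An ACA within the last 6 bases was present in 129 of the 2281 mature miRNAs of the tables that had a sequence (5.66%), and among the 7 members with a sequence it was present in miR-664a-3p, miR-664b-3p and miR-3651. miR-1248 and miR-1291 came from the other end and covered bases 1 to 27 of SNORA81 and 2 to 25 of SNORA2C. Each of the 7 sequences had 1 exact match in hg38 except miR-664b-3p, which also matched SNORA36C at chr2:69520046-69520067 (minus strand) in AAK1, a kinase gene, so its counts may be shared between the loci.

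**Figure D1:**
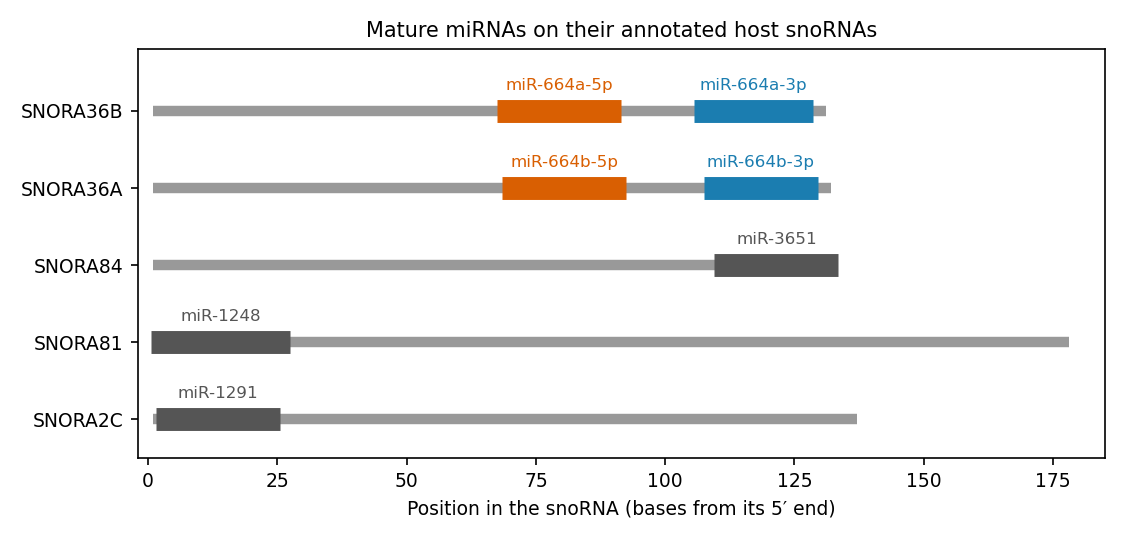
Positions of 7 mature miRNAs (boxes) along their annotated host snoRNAs (grey lines), in bases from the 5′ end of the snoRNA. The 5p arms of miR-664a and miR-664b start at bases 68 and 69, the 3p arms stop 3 bases before the end, miR-3651 ends at the last base of SNORA84, and miR-1248 and miR-1291 start at bases 1 and 2.

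Red libraries were the smallest. They held 242085 and 277498 counts against 5874405 and 4678102 in Ctrl, while Input held 7097379 to 14874685 and IP 2854811 to 6452759. The 9 members summed to 127 and 195 counts in Red (0.0525% and 0.0703% of the library) and to 187 and 176 in Ctrl (0.00318% and 0.00376%). Such a share also depends on the most abundant miRNAs, and the epithelial markers given below took up less of Red than of Ctrl. In Input their share was 0.00440%, 0.00403% and 0.00442% in 3 libraries and 0.0102% and 0.00873% in replicates 4 and 5, which stood apart in the same way among the IP libraries (0.00564% to 0.00569% against 0.00874% and 0.00993%). Where the values of the subsets, replicates 1 to 3 and replicates 4 and 5, differed most they are given beside the result. As a check of the cell type, the 5 epithelial markers summed to 381404 to 462956 CPM (counts scaled to the library total) in Input, nearly all of it miR-21-5p (380417 to 462595). Of the rest, miR-200b-3p was at 258 to 850 CPM, miR-200c-3p at 55.4 to 88.2, miR-200a-3p at 13.7 to 52.8 and miR-141-3p at 0 to 0.342. The 9 markers of blood, liver, muscle and neurons summed to 308 to 497 in Input, nearly all of it miR-9-5p (301 to 492). The epithelial markers summed to 789828 to 804415 CPM in Ctrl, 267458 to 269170 in Red and 46611.5 to 62816.5 in IP. The 9 markers of other cell types summed to 614 to 698 in Ctrl, 756 to 1114 in Red and 126 to 149.7 in IP, and their part in the results was not tested.

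The first comparison asked which of the members were taken up by the chemical pulldown. Of the 9, 6 had enough counts to be tested with DESeq2, and 5 of these were called enriched in Red (adjusted p under 0.05) and 0 depleted. Over all 400 miRNAs with an adjusted p, 32.2% were enriched and 27.2% depleted. The members called were miR-664b-5p, miR-3651, miR-1248, miR-1291 and miR-3607-3p, and the remaining tested member was miR-664a-3p, the only one with lower values in Red. The median log2 enrichment of the 6 was 4.56, against -0.09 over all 400. miR-3607-3p and miR-1291 reached 10 counts in all 4 libraries. miR-3651, miR-1248 and miR-664b-5p met the count minimum only through Red and miR-664a-3p only through Ctrl, so the count and the median describe the members and are not evidence about them as a set.

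hsa-miR-3651, the 3′ end of SNORA84, was at 2.49 and 4.09 normalized counts in Ctrl and at 174.1 and 166.4 in Red. The groups were far apart, and the raw counts were 9 and 11 in Ctrl against 47 and 68 in the much smaller Red libraries. Its log2 enrichment was 5.72 ± 0.55 (SE, adjusted p = 6.48e-24), and it was 4.56 (adjusted p = 9.04e-05) when Ctrl was thinned to the depth of Red.

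hsa-miR-1248, the 5′ end of SNORA81, was at 0.553 and 1.49 normalized counts in Ctrl and at 40.7 and 61.2 in Red, from raw counts of 2 and 4 against 11 and 25. Red was above Ctrl in both libraries. The log2 enrichment was 5.71 ± 0.93 (SE, adjusted p = 3.86e-09). Leaving out Ctrl replicate 1 gave 5.00 and leaving out Ctrl replicate 2 gave 6.49.

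hsa-miR-664b-5p had 0 and 1 raw counts in Ctrl and 10 and 10 in Red, which gave 0 and 0.372 normalized counts against 37.0 and 24.5. The normalized ratio of 20 counts to 1 was 186, with an exact 95% interval from 29.7 to 7699 that covers counting error only. It was called enriched (adjusted p = 1.58e-05), with a fitted log2 enrichment of 7.56 ± 1.66 (SE). This was 6.25 without the first Ctrl library and 9.19 without the other. With Ctrl thinned to the depth of Red it was 5.11 (adjusted p = 0.0370).

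hsa-miR-3607-3p was the member with the most even raw counts, 46 and 40 in Ctrl and 43 and 54 in Red. Per library it stood at 7.83 and 8.55 CPM in Ctrl and at 177.6 and 194.6 in Red, and after size factors at 12.7 and 14.9 normalized counts against 159.2 and 132.1. Red was above Ctrl throughout, with a log2 enrichment of 3.40 ± 0.48 (SE, adjusted p = 5.45e-12). The other arm, miR-3607-5p, had 0 counts in both Ctrl libraries and 1 in each Red library and was not tested.

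hsa-miR-1291, the 5′ end of SNORA2C, was at 9.96 and 6.69 normalized counts in Ctrl and at 44.4 and 44.05 in Red (log2 enrichment 2.40 ± 0.72 SE, adjusted p = 0.00185). The values did not overlap, but the call did not last. Adjusted p was 0.112 without Ctrl replicate 1, 0.135 without Ctrl replicate 2, 0.0578 without Red replicate 2 and 0.0630 with no count minimum, and the log2 enrichment stayed between 1.93 and 2.62 in these fits. With Ctrl thinned to the depth of Red it was 4.21 (adjusted p = 0.0529).

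The remaining arms of the SNORA36 pair had few counts in Red. hsa-miR-664a-3p was at 22.4 and 33.8 normalized counts in Ctrl and at 3.70 and 12.2 in Red, from raw counts of 81 and 91 against 1 and 5. All Red values were below the Ctrl values, and the log2 difference of -1.73 ± 1.00 (SE) was not called by DESeq2 (adjusted p = 0.123, unadjusted p = 0.0824), whereas the quasi-likelihood test of edgeR called it depleted (log2 -1.85, adjusted p = 0.0298). The estimate was -1.05 without Red replicate 1 and -3.003 without Red replicate 2. miR-664a-5p went the other way, with 1.11 and 2.60 normalized counts in Ctrl and 7.41 and 24.5 in Red (4, 7, 2 and 10 raw counts). It was below the count minimum, and in a fit with no minimum its log2 enrichment was 2.64 ± 1.497 (SE, adjusted p = 0.149). miR-664b-3p had 9 and 4 raw counts in Ctrl and 0 and 4 in Red, the normalized values overlapped, and no difference was detectable at this depth (log2 0.89 ± 2.30 SE, adjusted p = 0.785, with no minimum).

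Among the 6 tested members, 5 had both normalized Red values above both Ctrl values and 1 had both below. Over all 400 miRNAs these shares were 39.5% and 43.2%, and as 4 of the 6 met the count minimum only in the group where they were higher, nothing is read from the comparison.

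**Figure D2:**
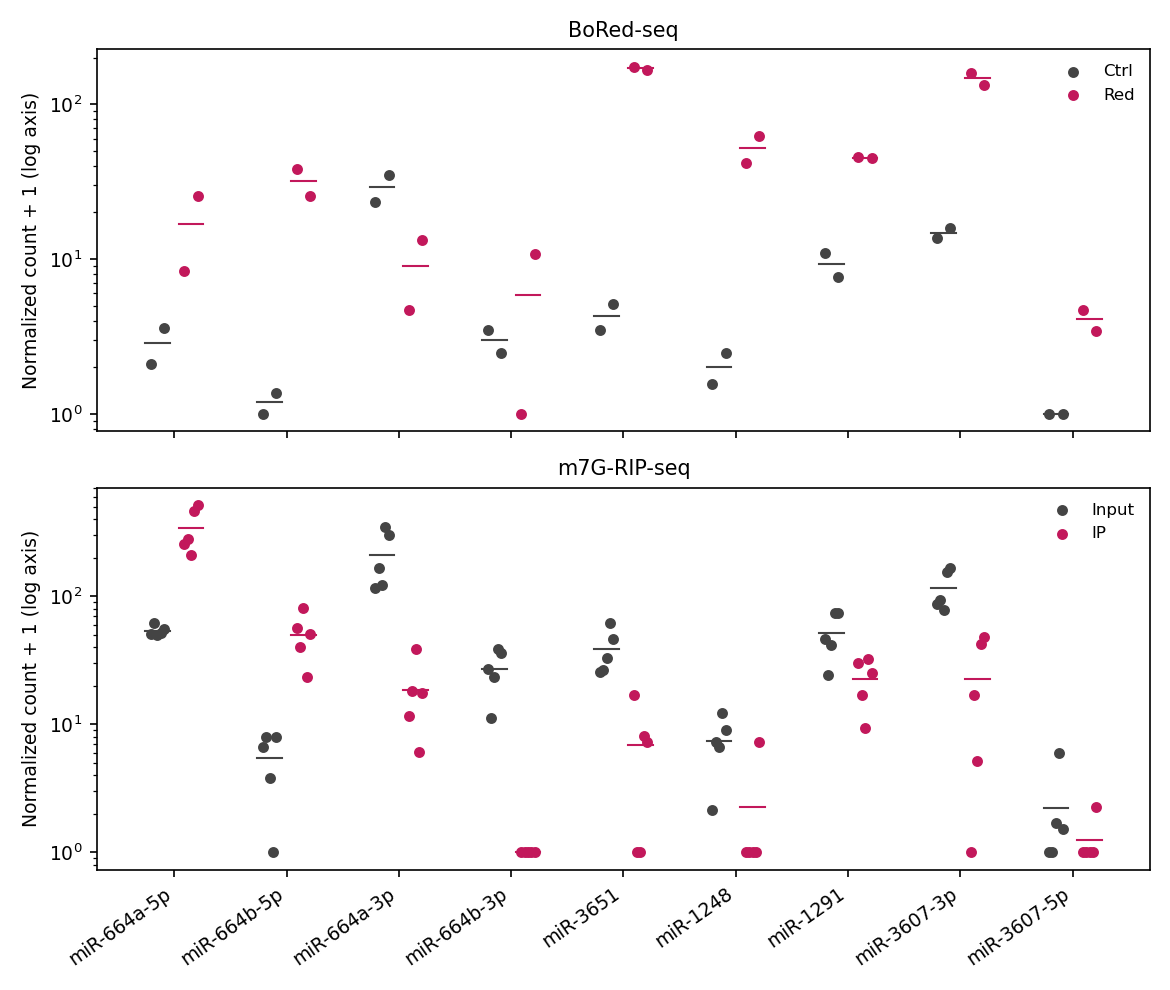
Normalized counts plus 1 (log axis) of the 9 members by library, with BoRed-seq above (Ctrl and Red, 2 libraries each) and m7G-RIP-seq below (Input and IP, 5 each). Points are libraries and bars are group means. miR-3651 is high in Red and low in IP, the 5p arms of miR-664a and miR-664b are above their controls in both assays, and miR-664b-3p is at 0 in all 5 IP libraries.

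The second comparison asked which members the antibody recovered. In m7G-RIP-seq 7 of the 9 were tested, 2 were enriched in IP and 5 were depleted, where 27.3% of all 670 miRNAs tested were enriched and 29.9% depleted. The enriched members were the 5p arms of miR-664a and miR-664b. Both 3p arms, miR-3651, miR-1291 and miR-3607-3p were depleted. The median log2 enrichment of the 7 was -2.38, against 0.02 over all miRNAs tested. Only miR-664a-5p reached 10 counts in all 10 libraries, and each of the others met the count minimum in the group where it was higher, so again these totals describe the members alone.

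hsa-miR-664a-5p stood at 49.7, 61.0, 49.0, 51.0 and 54.9 normalized counts in Input replicates 1 to 5 and at 254.6, 280.6, 208.6, 464.1 and 516.5 in IP replicates 1 to 5. The Input values were close together, and the lowest IP value was over 3 times the highest Input value. The log2 enrichment was 2.70 ± 0.30 (SE, adjusted p = 2.31e-18). It was 2.18 in replicates 1 to 3 and 3.17 in replicates 4 and 5, and called in each.

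miR-664b-5p was at 5.65, 6.99, 2.80, 0 and 6.93 normalized counts in Input and at 55.4, 39.4, 80.1, 22.3 and 49.5 in IP. The groups did not overlap, although Input raw counts were only 0 to 13. The log2 enrichment was 3.46 ± 0.64 (SE, adjusted p = 2.91e-07), and it was 3.46 in replicates 1 to 3 and 3.30 in replicates 4 and 5.

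The 3p arms from the same snoRNAs moved in the opposite direction. miR-664a-3p was at 115.3, 165.1, 122.5, 347.4 and 302.2 normalized counts in Input and at 10.6, 17.2, 37.9, 5.07 and 16.5 in IP. No IP library came near the lowest Input value. The log2 difference was -3.65 ± 0.51 (SE, adjusted p = 9.95e-12), and it was -2.70 in replicates 1 to 3 and -5.01 in replicates 4 and 5. miR-664b-3p was at 26.0, 10.2, 22.4, 37.9 and 35.2 normalized counts in Input and had 0 counts in all 5 IP libraries. Against a floor of 3 counts per IP library it was at least 6.32-fold lower in IP, and it was called depleted (adjusted p = 7.93e-09).

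The members without a tested opposite arm were all lower in IP. miR-3651 was at 24.9, 25.4, 32.2, 61.5 and 45.8 normalized counts in Input and at 15.8, 0, 0, 7.09 and 6.34 in IP. The groups did not overlap, and IP replicate 1 was the highest of the IP libraries. The log2 difference was -2.66 ± 0.74 (SE, adjusted p = 0.000882). Without IP replicate 1 it was -3.38, in replicates 4 and 5 it was -3.03 (adjusted p = 0.000597), and in replicates 1 to 3 it was -2.40 and no longer called (adjusted p = 0.125).

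miR-3607-3p was at 87.0, 92.1, 77.0, 153.5 and 164.7 normalized counts in Input and at 0, 16.0, 4.21, 41.5 and 46.9 in IP. Input and IP did not overlap, and both were higher in replicates 4 and 5 than in the other replicates. The log2 difference was -2.38 ± 0.73 (SE, adjusted p = 0.00271), with -3.65 in replicates 1 to 3 and -1.88 in replicates 4 and 5, each called. miR-3607-5p had 0, 0, 1, 8 and 1 raw counts in Input and 0, 0, 0, 0 and 1 in IP and was not tested.

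miR-1291 was at 45.2, 23.5, 40.6, 73.3 and 73.6 normalized counts in Input and at 29.0, 16.0, 8.43, 31.4 and 24.1 in IP. Of the 7 tested members this was the only one whose groups overlapped, through Input replicate 2. The log2 difference was -1.21 ± 0.47 (SE, adjusted p = 0.0189). It was not called with total-count factors (-0.92, adjusted p = 0.0932), in replicates 1 to 3 (-1.05, adjusted p = 0.274), without Input replicate 4 (adjusted p = 0.0758) or without Input replicate 5 (adjusted p = 0.0785).

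miR-1248 was too low to test. It had 1, 10, 8, 18 and 15 raw counts in Input and 0, 0, 0, 0 and 5 in IP, and 4 of the 5 IP libraries were below every Input library. IP replicate 5, at 6.34 normalized counts, overlapped Input replicate 1 at 1.13 and also lay above Input replicate 3. With no count minimum its log2 difference was -2.34 ± 1.39 (SE, adjusted p = 0.172).

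Of the 7 tested members, both 5p arms of the SNORA36 pair had every IP value above every Input value, and miR-664a-3p, miR-664b-3p, miR-3651 and miR-3607-3p had every IP value below every Input value. The shares over all 670 miRNAs were 18.2% above and 24.2% below, and the same limit of the count minimum applies to all but miR-664a-5p.

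The design allowed the arms of a hairpin to be set against each other within a library, where no size factor enters. For each library the log2 ratio of 3p to 5p counts was taken, with 0.5 added to both, and the ratios of 3 hairpins in 2 assays were compared with two-sided exact permutation tests adjusted over the 6.

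For miR-664a the log2 ratio in Input was 1.204, 1.43, 1.32, 2.76 and 2.45 in replicates 1 to 5, so the 3p arm had the more counts in every library. In IP it was -4.51, -3.98, -2.43, -6.38 and -4.92, so the 5p arm had the more counts in every library. The mean fell by 6.28, from 1.83 ± 0.72 to -4.44 ± 1.44 (SD, n = 5 each, exact permutation p = 0.00794, the smallest that 5 against 5 libraries can give, adjusted p = 0.0238). Pairing each IP library with the Input of its number left the difference as it was, with an exact sign-flip p of 0.0625, the smallest that 5 pairs can give, for miR-664a and also for miR-664b. In BoRed-seq the same ratio was 4.18 and 3.61 in Ctrl and -0.74 and -0.93 in Red, a change of -4.73 (exact permutation p = 0.333, the smallest that 2 against 2 libraries can give).

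For miR-664b the log2 ratio was 2.09, 0.52, 2.85, 6.94 and 2.30 in Input and -6.41, -6.02, -6.27, -5.49 and -6.30 in IP. The sign again turned in every library, and Input replicate 4, where the 5p arm had 0 counts, was far above the others. The mean went from 2.94 ± 2.40 to -6.10 ± 0.37 (SD, n = 5 each), a difference of -9.04 (exact permutation p = 0.00794, adjusted p = 0.0238), and the difference was -8.04 without Input replicate 4 and -9.65 without Input replicate 2. Because the 3p arm was at 0 throughout IP, the size of this difference depends on the 0.5 that was added, and with 1 added it was -7.81. In BoRed-seq the ratio was 4.25 and 1.58 in Ctrl and -4.39 and -1.22 in Red, a change of -5.72 (exact permutation p = 0.333), which ranged from -7.31 without Red replicate 2 to -4.14 without Red replicate 1.

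For miR-3607 the 3p arm exceeded the 5p arm in all libraries but IP replicate 1, where both were at 0. The mean log2 ratio was 6.84 ± 1.33 in Input and 3.62 ± 2.49 in IP (SD, n = 5 each, difference -3.22, exact permutation p = 0.0317, adjusted p = 0.0635), and it was 6.44 ± 0.14 in Ctrl and 5.02 ± 0.23 in Red (SD, n = 2 each, difference -1.42, exact permutation p = 0.333). The IP against Input difference was -4.86 in replicates 1 to 3 (exact permutation p = 0.100) and -0.77 in replicates 4 and 5 (exact permutation p = 0.667). With a 5p arm of at most 8 counts, these ratios rest almost wholly on the counts of miR-3607-3p.

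**Figure D3:**
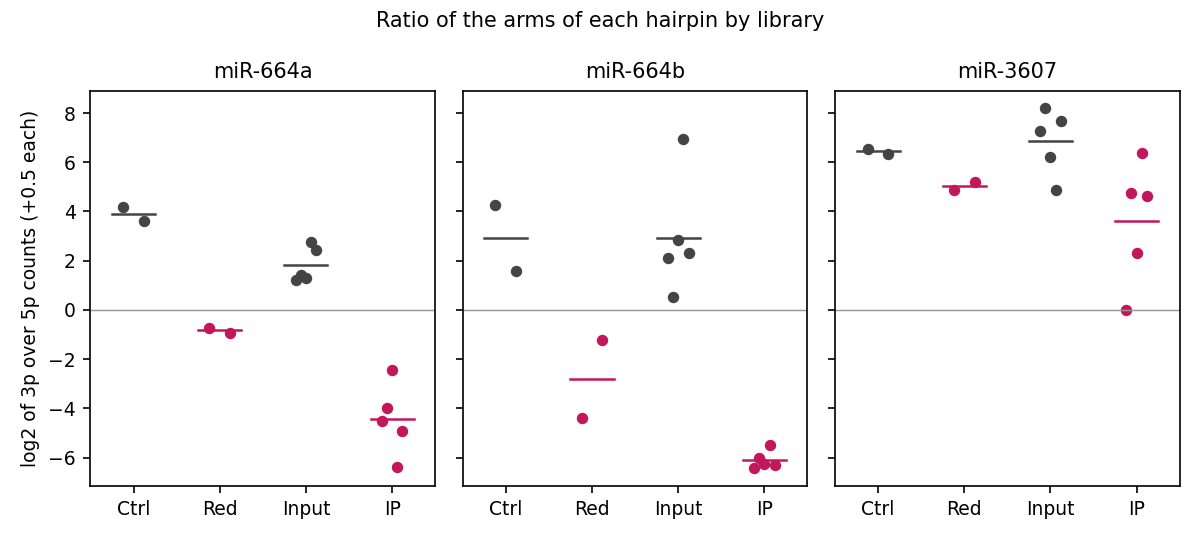
Log2 of 3p over 5p counts (0.5 added to each) for the hairpins of miR-664a, miR-664b and miR-3607 in every library of the 4 groups, with bars at group means and a line at equal counts. For miR-664a and miR-664b all Ctrl and Input libraries lie above 0 and all Red and IP libraries below it, while miR-3607 stays at or above 0 in every library.

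The assays were then compared with each other for the 5 members tested in both, by a two-sided z test of the difference between log2 enrichments, adjusted over the 384 miRNAs tested in both. The difference passed for 3 of the 5, all with the higher value in BoRed-seq. Over the 384 miRNAs it passed with the higher value in BoRed-seq for 29.4% and with the higher value in m7G-RIP-seq for 8.59%. miR-3651 differed by 8.38 ± 0.93 (log2, SE, z test adjusted p = 6.67e-18), miR-3607-3p by 5.78 ± 0.87 (z test adjusted p = 5.53e-10) and miR-1291 by 3.61 ± 0.86 (z test adjusted p = 0.000154). A DESeq2 fit of all 14 libraries with an interaction term gave adjusted p of 7.76e-13, 2.18e-05 and 0.000193 for these. miR-664b-5p differed by 4.10 ± 1.78 (z test adjusted p = 0.0546) and miR-664a-3p by 1.91 ± 1.12 (z test adjusted p = 0.169), and neither passed.

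These 3 members were called enriched with the chemical pulldown and depleted with the antibody. Of the 384 miRNAs, 7 (1.82%) had that pair of calls. The count minimum bears on this, since miR-3651 met it only through Red in the one assay and only through Input in the other, and miR-3607-3p and miR-1291 met it through Input in m7G-RIP-seq, so the share describes these calls and is not evidence about the members. For miR-1291 each of the calls was lost in some fits, as given above. miR-664b-5p was the 1 member enriched in both assays, as were 18.2% of the 384 miRNAs. The Red libraries, on which the BoRed-seq side rests, were the smallest of the study. The effect of that on the differences was checked only through the thinned Ctrl fit. Its values are given above for miR-3651, miR-1291 and miR-664b-5p, and for miR-3607-3p it gave 3.11 (adjusted p = 0.00129).

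**Figure D4:**
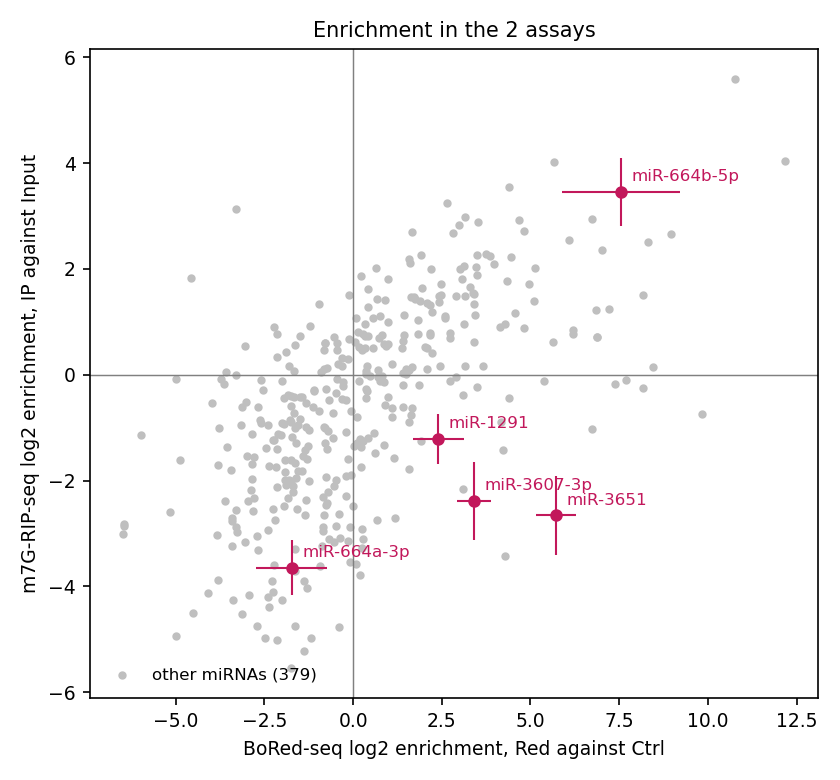
Log2 enrichment in BoRed-seq (Red against Ctrl, x axis) against m7G-RIP-seq (IP against Input, y axis) for the 384 miRNAs tested in both, with the 5 members in colour and bars of 1 SE. miR-3651, miR-3607-3p and miR-1291 lie at the lower right, miR-664b-5p at the upper right and miR-664a-3p at the lower left.

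A search of the annotation for further miRNA genes inside snoRNAs or small Cajal body RNAs (scaRNAs, guide RNAs of the Cajal body) on the same strand found 7 among 1879 miRNA genes. They were the 5 hairpins above, the miR-6516 hairpin in SCARNA16 and a hairpin in SNORD125 that the annotation leaves without a miRNA symbol. Values were therefore read for miR-6516 and for miR-3653, which is also known to overlap a snoRNA. The references used held no sequence or position for miR-3653, so whether it is the hairpin in SNORD125 was not determined here. miR-6516-3p ends 3 bases before the end of SCARNA16 and carries the ACA box, and its sequence is shown for comparison with the 3p arms above.
miR-6516-3p: aUCAUGUAugauacugcaaaca
It was at 1.66 and 1.86 normalized counts in Ctrl and at 144.4 and 146.8 in Red (log2 6.38 ± 0.64 SE, adjusted p = 2.38e-22). With the antibody it was too low to test, at 7.91, 8.26, 9.10, 13.0 and 8.53 normalized counts in Input and 0, 3.69, 19.0, 0 and 0 in IP. miR-3653-3p was enriched in Red (3.32 and 5.58 against 25.9 and 48.9 normalized counts, log2 3.11 ± 0.83 SE, adjusted p = 0.000476) and was not called in IP (log2 -0.38 ± 0.67 SE, adjusted p = 0.645). miR-3653-5p was not called in IP either (log2 -1.99 ± 0.99 SE, adjusted p = 0.0727).

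Among members with a sequence that were tested in IP, those that rose and those that fell also differed in runs of guanine. miR-3607-3p, which fell, had no sequence here, and miR-1248 was not tested in IP. miR-664b-5p held 3 separate runs of at least 3 guanines and miR-664a-5p held 1, whereas the other 5 members with a sequence held 0. Such a run (GGG, read on the RNA strand only) was present in 750 of 2281 mature miRNAs (32.9%). Guanine made up 45.8% of miR-664b-5p and 33.3% of miR-664a-5p, against 9.09% of miR-664b-3p and 4.35% of miR-664a-3p. miR-3651 and miR-1291, which fell, were at 29.2% each (7 of 24 bases, against 8 of 24 in miR-664a-5p), and miR-1248 was at 14.8%. Over all miRNAs tested with a sequence, the median log2 enrichment in m7G-RIP-seq was 0.87 for the 212 with GGG and -0.28 for the 390 without, and in BoRed-seq 1.04 for 114 and -0.54 for 241. The members enriched in Red did not sort this way, since miR-3651, miR-1248 and miR-1291, and miR-6516-3p (13.6% guanine), all held 0 such runs. For an ACA in the last 6 bases the medians were -0.32 for 34 miRNAs with it and 0.10 for 568 without in m7G-RIP-seq, and -0.36 for 21 and 0.00 for 334 in BoRed-seq. A run of guanines or an ACA is a description of the letters and not of a modified base. miR-664a-5p and miR-664b-5p differ by an edit distance of 8 bases and the 3p arms by 5, so members of the pair are similar sequences and not independent examples.

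The profiles closest to the members over the 10 m7G-RIP-seq libraries were those of miR-138-5p (Pearson r = 0.99 with the mean log2 normalized count of the 7 tested members), miR-27b-3p (0.98), miR-495-3p (0.98), miR-221-3p (0.98) and miR-4521 (0.98). The libraries fall into Input and IP, so these r include the difference between the groups, and they come with no test. Among the members, r was 0.84 to 0.92 for miR-664a-3p, miR-664b-3p, miR-3651, miR-3607-3p and miR-1291 and -0.78 and -0.84 for miR-664a-5p and miR-664b-5p. Each member is itself part of that mean, whose direction was set by the larger number that fell in IP. The r of members are therefore not comparable with those of the other miRNAs. In BoRed-seq the 5 closest miRNAs did not follow 1 direction. miR-138-5p was at a log2 of -2.88 and miR-27b-3p at -2.17, while miR-4521 was enriched in Red (3.09, adjusted p = 1.94e-22) and depleted in IP (-2.16, adjusted p = 1.31e-12), the pair of calls seen for miR-3651 and miR-3607-3p.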

How the data were processed

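Small RNA libraries of A549 cells (NEBNext kit, single-end reads) were analysed from the raw counts deposited by the authors, 1 table per assay. The authors trimmed adaptors with Trimmomatic, aligned reads to hg38 and counted them over miRBase mature miRNAs with featureCounts. The study's methods name STAR as the aligner and the submitters' processing notes name Bowtie2. Reads could map to several loci, so near-identical miRNAs may share counts. The study's methods do not say how such reads were counted. Counts were neither normalized nor pooled, and 0 columns had no sample.

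Libraries were grouped by their titles. DESeq2 1.42.0 (R 4.3.3, Wald test, median-of-ratios factors, no covariate) was fitted to each whole table after requiring 10 counts in at least 2 (BoRed-seq) or 5 (m7G-RIP-seq) libraries. Benjamini-Hochberg adjustment ran over all miRNAs, with calls under 0.05. A log2 enrichment is pulldown over control, not shrunken, and takes the typical miRNA as unchanged. DESeq2 gave an adjusted p to 400 of 453 miRNAs in BoRed-seq and to all 670 in m7G-RIP-seq. Arm ratios were tested with exact permutation tests (SciPy 1.17.1). Both fits were tested on simulated counts first. Coordinates are from GENCODE 44 and RefSeq.

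Alternatives were the edgeR 4.0.16 quasi-likelihood test, TMM and total-count factors, other count minimums, Ctrl thinned to 259792 counts, each library left out, subsets of replicates and a replicate block. Same-numbered Input and IP libraries deviated together in all 5 pairs (correlations 0.146 to 0.387), and the numbers were taken as pairs in the replicate block only. The main fits and the main tests of the arm ratios were not paired. Other-numbered libraries gave -0.286 to 0.373, with positive values within replicates 1 to 3 and within replicates 4 and 5, so the split between these subsets cannot be told apart from pairing by number. With the block no call of a member changed. Replicates of a group differed beyond sampling noise (chi-square over its degrees of freedom 8.17 to 66.9 for BoRed-seq, 31.4 to 1610 for m7G-RIP-seq), so all libraries counted as separate. Depth was 242085 to 14874685 counts per library. A count of 0 allows up to 12.4 CPM in the smallest Red library and 1.05 in the smallest IP library (3 counts). Reads carry no molecular identifiers, so intervals and floors cover counting error only.

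All 9 members are named, with 4 further entries overlapping snoRNAs or scaRNAs and the 5 miRNAs with the most similar m7G-RIP-seq profile. The members and lists were chosen with earlier results of these data known.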

Additional observations from a re-analysis of the deposited data

Results flagged for a closer look

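Enrichment differed between the assays for 3 members (two-sided z test of the difference, adjusted p under 0.05), all with the higher value in BoRed-seq. The test passed in that direction for 29.4% of the 384 miRNAs tested in both. The log2 enrichment in BoRed-seq minus that in m7G-RIP-seq was 8.38 for miR-3651, 5.78 for miR-3607-3p and 3.61 for miR-1291. Red values lay above Ctrl in 2 of 2 libraries for each of them, and IP values lay below every Input value in 5 of 5 libraries for miR-3651 and miR-3607-3p but not for miR-1291. Over all miRNAs, 39.5% of 400 lay wholly above in Red and 24.2% of 670 wholly below in IP. The limit of the count minimum given above applies here too, so these values only describe the members. Over the normalized counts of all 9 members and the 3 arm ratios in Input and IP (24 groups of 5 libraries), a library lay far from its group by Dixon's criterion in 3 cases. Chance flags about 1 in 20 groups of normally distributed values. That rate does not hold for counts near 0, as in these 3 groups, so no excess is read from them. IP replicate 5 held the only counts in IP of miR-1248 (5) and of miR-3607-5p (1), so its gap was the whole range (ratio of 1). For miR-3607-5p in Input, replicate 4 with 8 counts lay above the others, which had 0 or 1 (ratio of 0.859). Both members were too low to be tested in m7G-RIP-seq, and no value of a tested member was singled out in this way.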

How the results depend on the processing

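Of 189 values of single members under the alternatives, 178 kept their direction and call, 10 lost a call, 1 gained one and 0 turned direction. The losses were miR-1291 in both assays and miR-3651 in replicates 1 to 3 of m7G-RIP-seq, and the gain was miR-664a-3p with edgeR. Enriched members in BoRed-seq were 5, and 2 with at least 10 counts in every library, when only 2 members were in the fit. Depleted members there were 0, and 1 with edgeR. In m7G-RIP-seq the counts were 2 enriched and 5 depleted. They were 1 and 0 with 10 counts in every library (1 member in the fit), and 3 were depleted in replicates 1 to 3. Leaving out single libraries gave 4 to 5 enriched and 0 depleted in BoRed-seq, 2 enriched and 4 to 5 depleted in m7G-RIP-seq, and 3 to 4 members that differed between the assays.

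The m7G-RIP-seq arm ratio of miR-664a differed by -6.28 with the replicate block (exact permutation, adjusted p = 0.188), -4.96 in replicates 1 to 3 (0.200) and -8.26 in replicates 4 and 5 (0.400), and that of miR-664b by -9.04 with the block (0.188), -8.06 (0.200) and -10.5 (0.400). These designs cannot reach 0.05, since their smallest unadjusted p are 0.0625, 0.100 and 0.333. For miR-3607 the ratio passed with 1 added to each arm (-3.26, 0.0317), without Input replicate 4 (-3.72, 0.0476) and without IP replicate 4 (-3.91, 0.0317), and it was -4.86 in replicates 1 to 3 (0.200) and -0.77 in replicates 4 and 5 (0.667). Without single libraries the ratios ranged from -6.78 to -5.79 (miR-664a), -9.65 to -8.04 (miR-664b) and -3.91 to -2.32 (miR-3607) in m7G-RIP-seq, and from -5.01 to -4.44, -7.31 to -4.14 and -1.58 to -1.26 in BoRed-seq. Where 1 library remained in a group, it was assumed to vary like the other group.

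Total-count factors raised the median log2 of all miRNAs by 1.08 (BoRed-seq) and 0.36 (m7G-RIP-seq), and TMM factors moved it by -0.19 and 0.03. Total-count factors called 175 enriched and 46 depleted miRNAs (129 and 109 otherwise) and 232 and 164 with the antibody (183 and 200 otherwise). No member tested changed direction under any scaling. edgeR called 167 miRNAs depleted in BoRed-seq against 109, and with 10 counts in every library 71 were enriched and 71 depleted there and 128 and 116 in m7G-RIP-seq. Thinned Ctrl gave 107 enriched and 60 depleted miRNAs, and leaving out Ctrl replicate 2 gave 103 and 62. In BoRed-seq same-numbered libraries had a correlation of deviations of 0.110 and share only a number. With 2 libraries per group both pairs must give the same value, so the pairs do not bear each other out. There a replicate block gave 119 enriched and 98 depleted miRNAs and the same calls of members. The setting of 10 counts in every library left no member tested in both assays, so it gave no difference between them. Cause of the changes was not tested. Counts were too low to test 3 of the 9 members with the chemical pulldown and 2 with the antibody.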
